A study of Arabidopsis thaliana with 4 samples.

Results

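The pericentromeric pseudogenes described here are the 730 genes that the gene annotation classes as pseudogene or transcribed pseudogene, whose locus tag lies in 1 of 5 windows around the centromeres, and that have a probe set of their own on the array. The windows run from AT1G34000 to AT1G45000, AT2G04500 to AT2G16000, AT3G28000 to AT3G45000, AT4G02500 to AT4G09500 and AT5G26500 to AT5G38000, and they hold 3562 pseudogene loci in the annotation, of which 730 could be matched to a probe set of their own through the annotation used here. Each of the 730 genes had 1 probe set, of 22746 probe sets on the array. Of these genes 706 were pseudogenes and 24 transcribed pseudogenes, with 118 on chromosome 1, 229 on chromosome 2, 162 on chromosome 3, 130 on chromosome 4 and 91 on chromosome 5. No member has a gene symbol in the annotation, so each is called by its locus tag, and the transposon family of a member is not used here.

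Transcripts were measured with Affymetrix ATH1 arrays in Arabidopsis thaliana seedlings of 2 genotypes, the wild type Col-0 and aln-1, a Col-0 line with a mutant allele of ALN, which encodes allantoinase. Total RNA came from the aerial parts of seedlings 2 weeks after germination, grown without microbes on solid half-strength MS medium with sucrose in long days. Each genotype had 2 arrays, labelled as biological replicates, and aln-1 is represented by 1 mutant allele. The series was made to find which transcripts differ in a plant that accumulates allantoin, an intermediate of purine breakdown.

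The regions around plant centromeres are packed as heterochromatin, which is rich in transposons and their decayed copies and poor in active genes. Its DNA is densely methylated in all sequence contexts. The maintenance methyltransferase MET1, the chromatin remodeller DDM1, the chromomethylases and the RNA-directed DNA methylation pathway keep it silent, and mutants of these factors are known to transcribe many transposons. Many annotated pseudogenes in the windows are remnants of transposons. Pseudogene copies resemble each other, so a probe set can read several loci. Probe sets with names ending in _s_at or _x_at are designed to share probes with other sequences, and 82 and 62 members had these types.

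A deposited value is the log2 signal of a probe set on an array relative to the median of its own 4 values, so it shows differences between arrays and not how strongly a gene was expressed. Where both arrays of one genotype lie above both of the other, the inner pair of values mirrors around 0 because of this centring. A loose class of brightness was read from the rounding steps of the values, and it follows the lowest signal of a probe set. The bright class stands for signals of at least 256, the dim class for signals below 16 or for equal lowest values on several arrays, and the middle class for the rest. Of the members, 620 were dim, or 84.9%, against 20.01% of all probe sets, while 93 were middle and 17 bright. In bulk tissue, fewer cells of a type and less RNA per cell cannot be told apart.

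As a check of the labels, ALN itself lies in the chromosome 4 window as a protein-coding gene. Its values were 1.59 and 2.03 on the Col-0 arrays and -1.59 and -1.72 on the aln-1 arrays. The difference was -3.46 (SE 0.22), with a limma adjusted p of 0.058, so the mutant arrays were lower without passing the threshold of 0.05.

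Of the 730 pseudogenes, 5 passed the limma test over all probe sets (adjusted p under 0.05 by the Benjamini-Hochberg method), 4 higher and 1 lower in aln-1. AT4G04410, AT5G34800, AT2G13970 and AT1G35612 rose, by 15.3-fold for AT1G35612 up to at least 48.4-fold for AT4G04410, and AT5G34920 fell 90.8-fold. Over all probe sets, 58 of 22746 passed, or 0.255%, of which 35 were higher (0.154%) and 23 lower (0.101%). The share of members called was 0.685%. Within the dim class it was 0.484%, against 0.747% of all dim probe sets. In the middle class 1 of 93 members passed, against 0.133% of all middle probe sets, and in the bright class 1 of 17, against 0.131%.

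AT5G34920 had the largest difference of all members. It gave 3.18 and 3.39 on the Col-0 arrays and -3.26 and -3.18 on the aln-1 arrays. Both wild type arrays were high and both mutant arrays low, with SDs of 0.15 in Col-0 and 0.06 in aln-1 (n = 2 each). The difference was -6.50 (SE 0.16, limma adjusted p 0.0459). Its probe set is of the type _s_at, so the signal may belong to more than 1 locus.

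AT4G04410 showed the opposite order. Its values were -2.70 on both Col-0 arrays, and 2.70 and 3.09 on the aln-1 arrays. The equal wild type values are read as the lower limit of the signal scale, a signal of 1, which puts the aln-1 signals at 42.2 and 55.4. On that reading the gene was at least 48.4-fold higher in aln-1 (log2 difference 5.60, SE 0.20, limma adjusted p 0.0471). Equal values at a limit give an SD of 0 in Col-0 whatever the true spread, so this SE and p can be too small.

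AT5G34800, of the middle brightness class, gave -2.46 and -2.39 in Col-0 and 2.88 and 2.39 in aln-1. The genotypes did not overlap, and the difference was 5.06 (SE 0.23, limma adjusted p 0.0480). It lies in the same window as AT5G34920, which moved the other way.

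AT2G13970 gave -2.36 and -2.25 in Col-0 and 2.69 and 2.25 in aln-1. The SD was 0.08 in Col-0 and 0.30 in aln-1 (n = 2 each), and the difference was 4.78 (SE 0.21, limma adjusted p 0.0480). AT1G35612, the called member of the bright class, gave -1.85 and -2.09 in Col-0 and 2.09 and 1.85 in aln-1. Its difference was 3.94 (SE 0.18, limma adjusted p 0.0480), and both genotypes varied by an SD of 0.17 (n = 2 each).

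All 5 calls lie close to the threshold. None passed after quantile normalization, with a robust variance prior, or with either of the Col-0 arrays or either of the aln-1 arrays left out. The smallest limma adjusted p among the members was 0.0518 and 0.0512 in the first pair of these fits, and lay between 0.176 and 0.289 with an array left out. In each of these fits 0 of all 22746 probe sets passed, so the loss is not particular to these 5 genes. Their differences kept their direction and size. Over the fits with an array left out, that of AT5G34920 lay between -6.61 and -6.40 and that of AT1G35612 between 3.82 and 4.06.

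**Figure D1:**
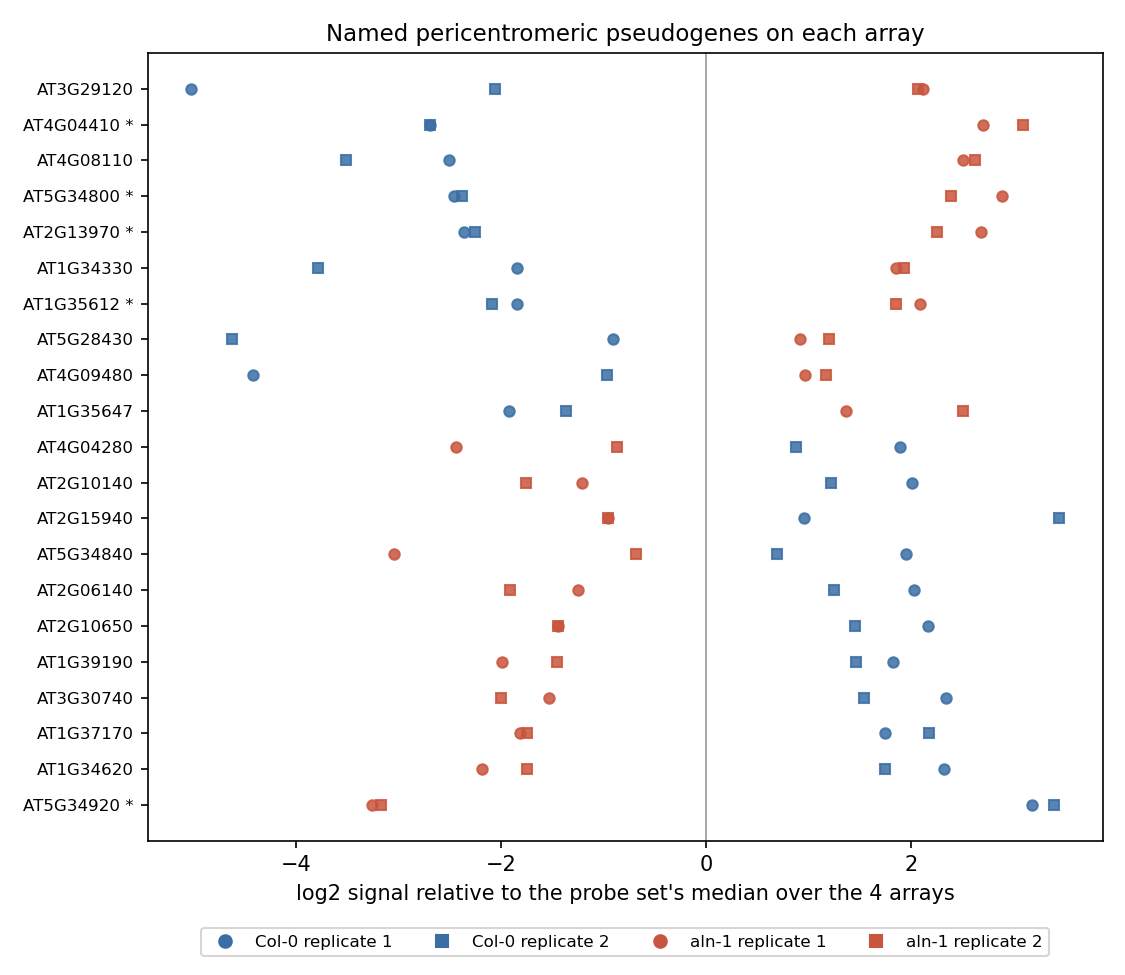
Log2 signal relative to the probe set's median over the 4 arrays (x axis) for the 21 named pseudogenes (y axis), with 1 point per array; circles are replicate 1 and squares replicate 2, Col-0 in blue and aln-1 in red, and an asterisk marks a limma adjusted p under 0.05. The 5 marked genes have both arrays of a genotype close together, while AT5G28430 and AT4G09480 have Col-0 arrays far apart, at -0.91 and -4.62 and at -4.42 and -0.97. The test itself favours genes with a small spread, and the Col-0 points of AT4G04410 coincide at what is read as the lower limit.

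A count without a model asked in which pseudogenes every aln-1 array was at least 2-fold above, or at least 2-fold below, every Col-0 array. This held for 88 of 730, or 12.1%, with 49 higher and 39 lower in aln-1. Over all probe sets it held for 8.21%, with 4.67% higher and 3.54% lower. The members' shares were 6.71% higher and 5.34% lower. The same shares were read by brightness class, as a description only, since the class follows the lowest signal and a gene low in 1 genotype is classed as dim. In the dim class 76 of 620 members met the limit, or 12.3%, against 13.8% of all dim probe sets, and in the middle class 9.68% against 9.84%. By direction, 8 middle members were higher and 1 lower (8.60% and 1.08%), against 5.44% and 4.40% of all middle probe sets. In the bright class 3 of 17 members met it, against 4.67% of all bright probe sets.

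Those 3 bright members, picked out after their values were seen, are AT1G35612, AT3G43690 and AT1G43590. AT3G43690 gave -0.60 and -1.33 in Col-0 and 0.74 and 0.60 in aln-1 (difference 1.63, SE 0.31, limma adjusted p 0.128). AT1G43590 gave 0.75 and 0.81 in Col-0 and -0.75 and -1.31 in aln-1 (difference -1.80, SE 0.25, limma adjusted p 0.0945). Neither passed the test.

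Pseudogenes outside the windows and protein-coding genes inside them served as comparisons. Of 259 pseudogenes outside, 13.1% met the 2-fold limit, and 12.7% of the dim ones. Of 986 probe sets of protein-coding genes inside the windows, 10.8% met it, and 15.5% of the dim ones. No test of these differences was made, and the shares are descriptions.

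**Figure D2:**
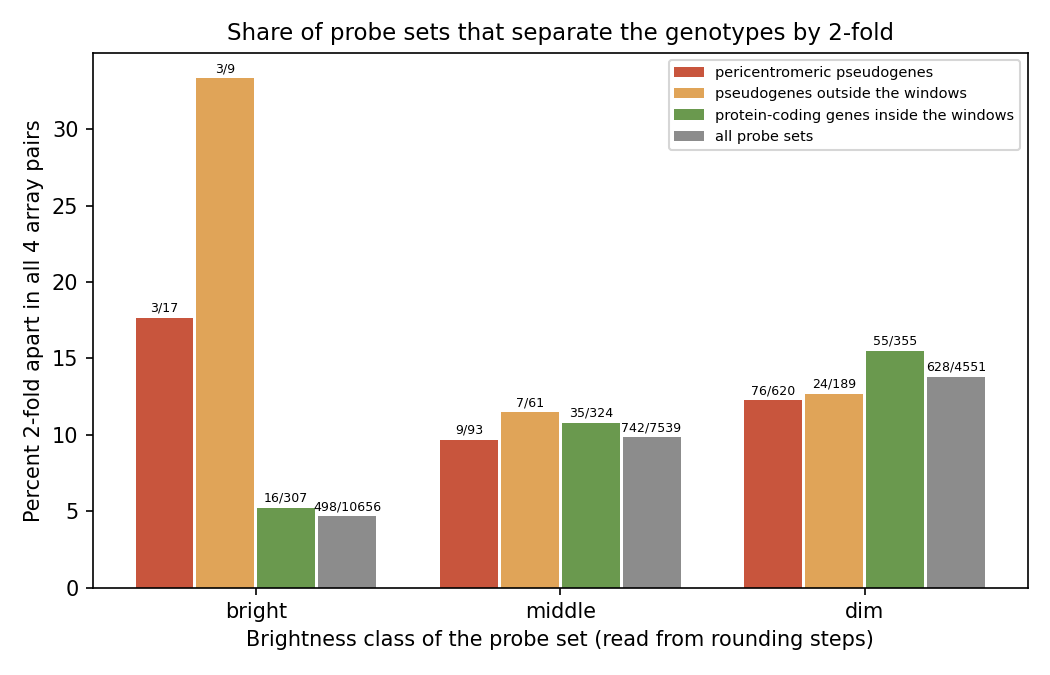
Percent of probe sets whose aln-1 arrays are both at least 2-fold above, or both at least 2-fold below, both Col-0 arrays (y axis), by brightness class (x axis), for the pericentromeric pseudogenes, pseudogenes outside the windows, protein-coding genes inside them and all probe sets; the fraction over each bar is the count. In the dim class, which holds 620 of the 730 members, the members' bar of 12.3% is below the 13.8% of all probe sets; the bright bars of the pseudogenes rest on 17 and 9 genes.

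Among the members 2-fold apart in every pair, those with the largest differences were read by array. Besides AT5G34920, the genes AT3G29120, AT5G28430, AT1G37170, AT1G39190 and AT2G15940 have probe sets of the type _s_at, and AT2G10140 of the type _x_at. Their signals may belong to more than 1 locus. AT3G29120 had the largest positive difference, 5.63 (SE 1.15), from -5.02 and -2.06 in Col-0 to 2.12 and 2.06 in aln-1. The aln-1 arrays lay close together, while the Col-0 arrays differed by more than 2 log2 units, and the limma adjusted p was 0.136. AT4G08110 gave -2.51 and -3.51 in Col-0 and 2.51 and 2.62 in aln-1, a difference of 5.58 (SE 0.41, limma adjusted p 0.0647). AT1G34330, a transcribed pseudogene, gave -1.85 and -3.79 in Col-0 and 1.85 and 1.93 in aln-1, a difference of 4.71 (SE 0.76, limma adjusted p 0.106). In these 3 genes the spread came mainly from the Col-0 arrays.

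AT1G35647 gave -1.92 and -1.37 in Col-0 and 1.37 and 2.50 in aln-1, a difference of 3.58 (SE 0.51). In AT5G28430 and AT4G09480 the Col-0 arrays were far apart. AT5G28430 differed by 3.82 (SE 1.45), and by 1.97 without Col-0 replicate 2. AT4G09480 differed by 3.76 (SE 1.34), and by 2.03 without Col-0 replicate 1.

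On the lower side, after AT5G34920, came AT1G34620, with 2.32 and 1.75 in Col-0 and -2.19 and -1.75 in aln-1 (difference -4.002, SE 0.31, limma adjusted p 0.067). AT1G37170 gave 1.75 and 2.18 in Col-0 and -1.82 and -1.75 in aln-1 (difference -3.74, SE 0.21, limma adjusted p 0.0538), the smallest p among the named members that missed the threshold. AT3G30740, a transcribed pseudogene, gave 2.34 and 1.54 in Col-0 and -1.54 and -2.00 in aln-1 (difference -3.71, SE 0.38, limma adjusted p 0.0813). In all 3 the genotypes were separated by more than 3 log2 units at the nearest arrays.

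AT1G39190, AT2G10650, AT2G06140 and AT2G10140 differed by -3.37, -3.25, -3.22 and -3.10, with SEs from 0.28 to 0.42. For AT2G10650 both aln-1 arrays gave the same value, -1.45, read as the lower limit, so it was at least 9.54-fold lower in aln-1. AT4G04280 differed by -3.04 (SE 0.73). AT5G34840 and AT2G15940 changed in log2 difference by over 1.5 times when 1 array was left out. AT5G34840 differed by -3.19 (SE 1.04), and by -2.01 without aln-1 replicate 1. AT2G15940 differed by -3.16 (SE 0.97), and by -1.92 without Col-0 replicate 2, and both its aln-1 arrays were at the lower limit. The SEs of AT2G10650 and AT2G15940 can be too small, because equal values at the limit add no spread.

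Over all members the differences lay on both sides of 0. The median was 0.06 on the log2 scale, against -0.08 over all probe sets, with the middle 50% of members between -0.72 and 0.73. Of the 730, 379 were above 0, 337 below and 14 at 0. The median turned to -0.01 without Col-0 replicate 2 and to -0.0064 without aln-1 replicate 1, and was 0 without aln-1 replicate 2, so it had no stable direction. Pseudogenes outside the windows had a median of 0 and protein-coding genes inside them -0.04.

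The arrays of 1 genotype often disagreed about a pseudogene. The median within-genotype SD of the members was 0.92 on the log2 scale, against 0.22 over all probe sets and 0.93 over dim probe sets. The Col-0 arrays were at least 2-fold apart from each other in 50.8% of members and the aln-1 arrays in 43.3%, against 13.6% and 14.2% over all probe sets and 49.0% and 48.1% over dim ones. Both arrays of one genotype lay above both of the other in 231 members, or 31.6%, against 60.1% over all probe sets and 37.1% of dim ones. An unadjusted limma p under 0.05 was found in 110 members, or 15.1%, against 23.4% of all probe sets and 16.5% of dim ones.

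Single arrays stood out in many members. In 240 members, or 32.9%, 1 array lay at least 2-fold above the other 3, against 8.10% of all probe sets. In 183, or 25.1%, 1 array lay at least 2-fold below the others, against 9.96%. These shares were not counted over dim probe sets, the class of most members. Col-0 replicate 1 was the array above the others in 79 members, aln-1 replicate 1 in 59, Col-0 replicate 2 in 53 and aln-1 replicate 2 in 49. Col-0 replicate 2 was the array below the others in 57, aln-1 replicate 1 in 45, Col-0 replicate 1 in 43 and aln-1 replicate 2 in 38. Over all probe sets Col-0 replicate 1 was also the array most often above the others, in 2.66%, and aln-1 replicate 2 the one most often below them, in 3.17%.

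**Figure D3:**
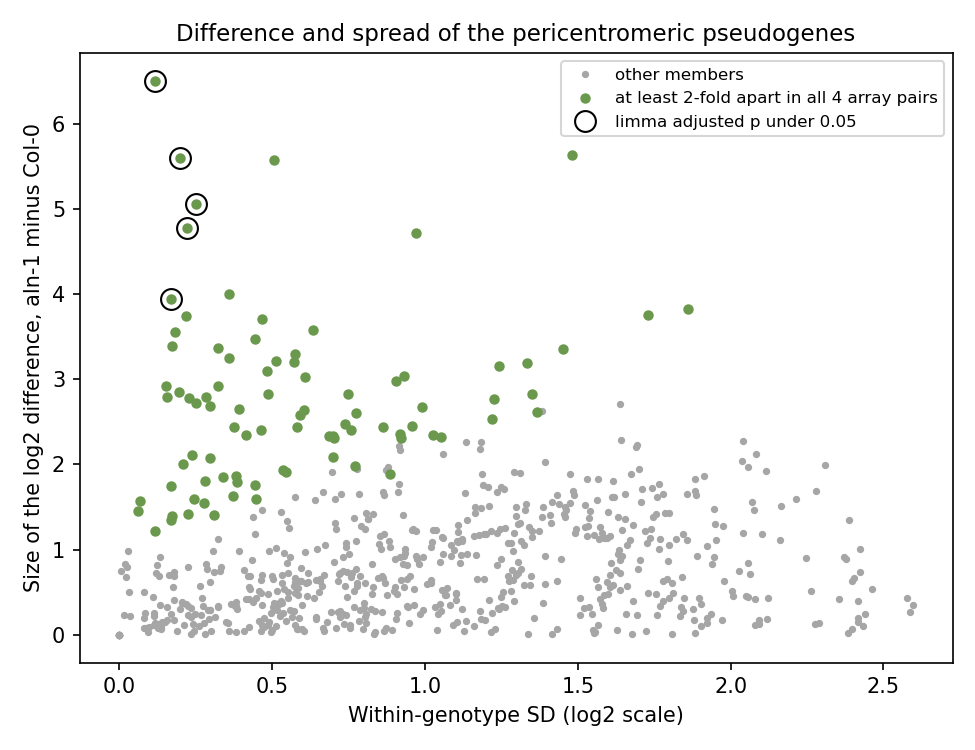
Size of the log2 difference between aln-1 and Col-0 (y axis) against the within-genotype SD on the log2 scale (x axis) for each of the 730 pseudogenes; green points separate every aln-1 array from every Col-0 array by 2-fold or more and circled points have a limma adjusted p under 0.05. The 5 circled genes combine differences of 3.94 or more in size with small SDs, which the test itself favours. Most grey points have an SD as large as their difference or larger.

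Many members had equal lowest values, which are read here as the lower limit of the scale. In 137 members, or 18.8%, the lowest value was exactly equal on at least 2 arrays, against 1.99% of all probe sets. Such probe sets are dim by definition, and they made up 22.1% of dim members and 9.95% of all dim probe sets. Of pseudogenes outside the windows 10.4% had such values, and 3.45% of the probe sets of protein-coding genes inside. The equal value was on all 4 arrays in 14 members. In the other 123, reading the equal value as a signal of 1, the highest signal had a median of 5.15 and was below 16 in 113. AT4G04410 had the highest of these signals, 55.4.

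Some pseudogenes were at the limit on both arrays of one genotype and on no array of the other. There were 12 with both Col-0 arrays at the limit and 10 with both aln-1 arrays there, while 56 members had 1 array of each genotype at the limit. Over all probe sets the same counts were 48, 53 and 197. Of the 12 and the 10 members, 5 and 5 met the 2-fold limit in every pair. The 22 were picked for having 1 genotype at the limit, so the lack of overlap follows from the choice. How many of the 48 and 53 probe sets met the 2-fold limit was not counted. In the first set AT4G03780 and AT2G06310 followed AT4G04410, and were at least 6.88-fold and at least 6.93-fold higher in aln-1. In the second set AT2G10650 and AT2G15940 led, the latter at least 8.93-fold lower in aln-1. AT4G04410 alone of the 22 passed the limma test.

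**Figure D4:**
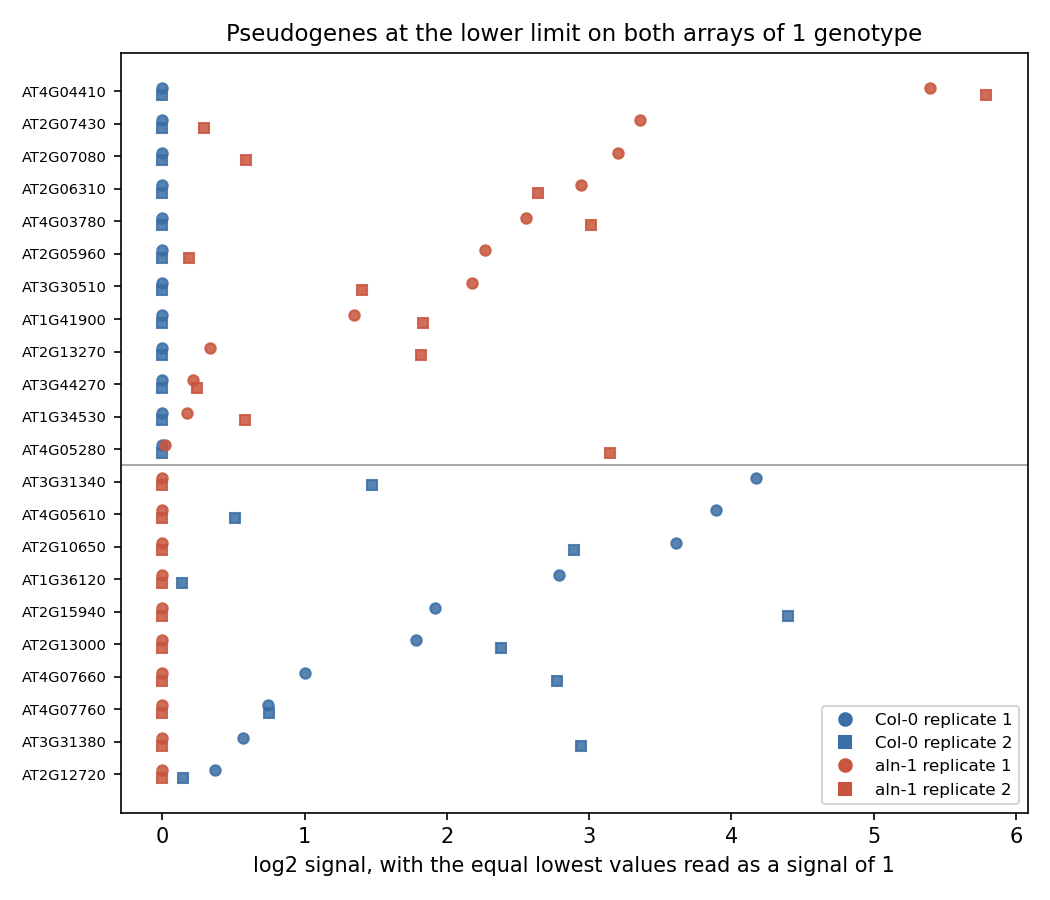
Log2 signal with the equal lowest values read as a signal of 1 (x axis) for the 22 pseudogenes at the lower limit on both arrays of 1 genotype and on none of the other (y axis); circles are replicate 1 and squares replicate 2, Col-0 in blue and aln-1 in red. The 12 genes above the line have both Col-0 arrays at 0 and the 10 below it both aln-1 arrays at 0, and only AT4G04410 has both arrays of the other genotype above 5.

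The 88 pseudogenes were spread over all 5 windows. On chromosome 1, 9 members were 2-fold higher and 12 lower in aln-1, and on chromosome 2, 10 higher and 13 lower. On chromosome 3 there were 11 higher and 6 lower, on chromosome 4, 11 higher and 4 lower, and on chromosome 5, 8 higher and 4 lower. In either direction, 17.8% of the members on chromosome 1 were 2-fold apart, 10.04% on chromosome 2 and 10.5% on chromosome 3. The shares were 11.5% on chromosome 4 and 13.2% on chromosome 5, against 8.21% of all probe sets and 13.8% of dim ones. The limma calls were 2 on chromosome 5, 1 each on chromosomes 1, 2 and 4, and 0 on chromosome 3. There 20 of 162 members had an unadjusted limma p under 0.05, or 12.3%, against 23.4% of all probe sets and 16.5% of dim ones. Window medians lay between -0.01 and 0.14. Whether the windows differ from each other was not tested.

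Because the windows end at chosen locus tags, the pseudogenes next to their ends were also read. The 10 just inside differed by -2.18 to 3.76 and the 10 just outside by -1.67 to 1.90. Of the first, 2 were 2-fold apart in every pair, and of the second, 1.

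**Figure D5:**
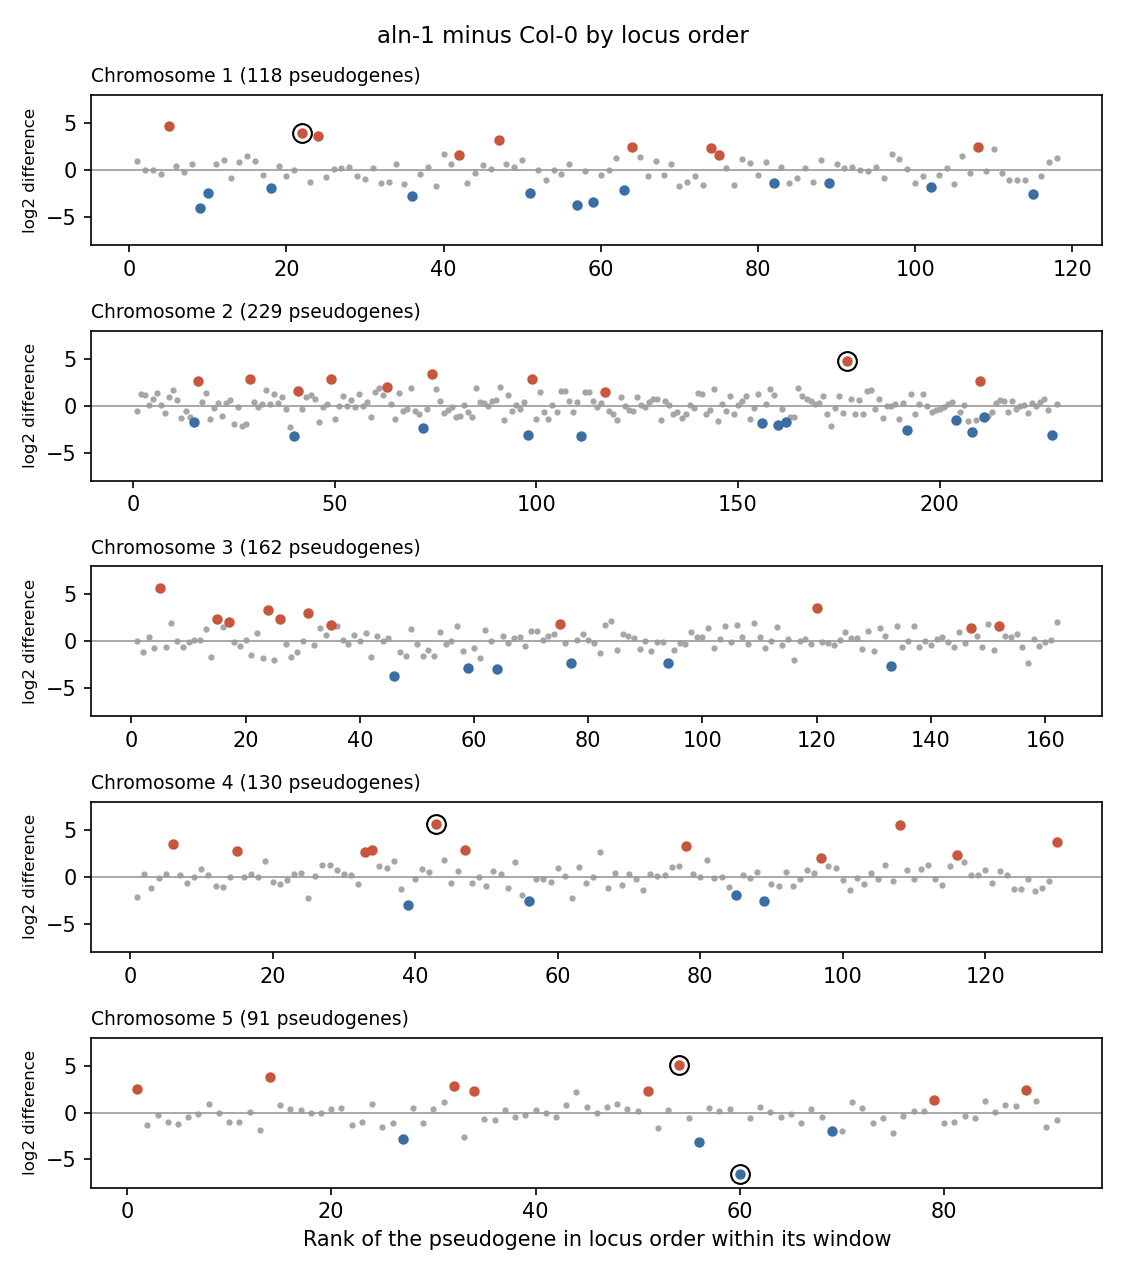
Log2 difference, aln-1 minus Col-0 (y axis), of each pseudogene by its rank in locus order within its window (x axis, 1 panel per chromosome); red and blue points are 2-fold higher and lower in aln-1 in all 4 array pairs, grey points are the other members and black circles mark a limma adjusted p under 0.05. Red and blue points are spread along every panel, with the 5 circled genes on chromosomes 1, 2, 4 and 5.

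Neighbouring pseudogenes were compared in locus order. Of the members, 656 had another member within 50 locus numbers, which gave 550 pairs of consecutive members. Both members of a pair were 2-fold apart in 6 pairs, 1 member in 124 and neither in 420. Of all members 12.1% were 2-fold apart. How many such pairs would arise without any link between neighbours was not tested, so the counts are a description. The 6 pairs were divided between 3 with 1 direction and 3 with opposite directions.

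AT4G04120 and AT4G04130 were both higher in aln-1, by 2.61 and 2.92. AT4G04130 gave -1.37 and -1.67 in Col-0 and 1.43 and 1.37 in aln-1 (SE 0.17, limma adjusted p 0.0567), while AT4G04120 had Col-0 arrays far apart, at -0.52 and -3.20. AT1G41870 and AT1G41900 were higher by 2.31 and by 1.59, the second being at the lower limit on both Col-0 arrays. AT1G34620 and AT1G34660 were lower, at -4.002 and -2.44. AT4G04130 was measured with a probe set of the type _s_at, and none of these 6 genes passed the test.

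In the other pairs the neighbours went opposite ways. AT2G05020 differed by -1.76 and AT2G05030 by 2.68. AT2G06140 differed by -3.22 and AT2G06150 by 1.60. AT2G15140 differed by 2.65 and AT2G15150 by -1.22, and both of these probe sets are of types that share probes with other sequences.

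The next measured genes beside the 5 called pseudogenes gave smaller differences, and none was 2-fold apart in every pair. Genes without a probe set of their own were skipped, so a next measured gene can lie several genes away. None was found before AT4G04410 in the stretch searched. AT1G35612 has measured protein-coding neighbours directly before and after it, AT1G35610 at -0.19 (SE 0.39) and AT1G35614 at 0.56 (SE 0.18). Beside AT5G34920, the pseudogene AT5G34900 differed by 0.35 (SE 0.38) and the protein-coding gene AT5G34930 by 0.11 (SE 0.13). Beside AT5G34800, the pseudogenes AT5G34790 and AT5G34820 differed by 0.29 (SE 0.42) and -0.58 (SE 0.61). AT4G04420, after AT4G04410, differed by 1.77, but with an SE of 1.37. Beside AT2G13970, the protein-coding gene AT2G13950 differed by 0.19 (SE 1.08) and the pseudogene AT2G14010, 7 genes away, by 0.66 (SE 1.87).

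ALN lies among these pseudogenes, so the members near it were counted, at a distance chosen after the data were seen. Within 1000 locus numbers of ALN there were 38 members, of which 4 were 2-fold higher and 2 lower in aln-1 (10.5% and 5.26%). These include AT4G04410, AT4G04120 and AT4G04130. Of the 92 other members of the chromosome 4 window, 7 were higher and 2 lower (7.61% and 2.17%). The shares were 6.71% and 5.34% over all members, and 4.67% and 3.54% over all probe sets. The median difference was 0.30 near ALN and 0.01 in the rest, and whether the 2 sets differ was not tested. Of 53 protein-coding genes within the same distance, ALN among them, 1 was higher and 2 were lower (1.89% and 3.77%), with a median of -0.18.

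Of the 24 transcribed pseudogenes, 1 was 2-fold higher in aln-1 and 2 were lower, AT1G34330 against AT3G30740 and AT4G05500. Together this was 12.5% of them, against 8.21% of all probe sets and 13.8% of dim ones. None of the 24 passed the limma test. An unadjusted limma p under 0.05 was found in 4, or 16.7%, against 23.4% of all probe sets and 16.5% of dim ones. The median difference of the transcribed pseudogenes was 0.11. By probe set type, 12.5% of the _at members met the 2-fold limit, 12.2% of the _s_at members and 8.06% of the _x_at members. Of all probe sets, of any type, 8.21% met it.

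Few genes of the silencing machinery could be matched to a probe set of their own through the annotation used here. That annotation did not list 8730 of the 22746 probe sets. In this and the next paragraphs a measured gene is one matched in this way, and the others may be on the array too. Of 28 genes for transposon and DNA methylation silencing 3 were measured. H1.2 and H1.1, linker histones that compact heterochromatin, differed by 0.55 (SE 0.15, limma adjusted p 0.174) and -0.17 (SE 0.23). MTHFD1, an enzyme of folate metabolism needed for DNA methylation, differed by -0.20 (SE 0.15). None of the 3 passed the test.

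Of 19 genes of RNA-directed DNA methylation and small RNA, CLSY4, a remodeller that recruits the polymerase of that pathway, was measured. It gave 0.92 and 0.09 in Col-0 and -0.09 and -0.21 in aln-1, a difference of -0.66 (SE 0.35, limma adjusted p 0.343). Of 4 DNA demethylation genes, DME, a DNA glycosylase that removes methylated cytosine, was read by 3 probe sets, which differed by -0.63, -0.40 and 0.14. The probe sets of DME disagreed in sign, and none passed.

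Heat is known to activate some retrotransposons of Arabidopsis, and of 13 heat stress genes 2 were measured. ROF2, an immunophilin induced by heat, differed by 0.99 (SE 0.25, limma adjusted p 0.162). HSP22.0, a small heat shock protein, differed by -0.23 (SE 1.71), with arrays at 1.62 and -1.45 in Col-0 and -1.73 and 1.45 in aln-1. Neither passed, and the arrays of HSP22.0 disagreed within both genotypes.

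No measured marker of the harvested tissue or of roots passed the test. Of 14 genes of photosynthetic tissue 5 were measured, and all 5 differences were negative (median -0.45), although LHCB4.1 and PSAE-1 lay near their error, at -0.19 (SE 0.17) and -0.12 (SE 0.20). SBPASE, a Calvin cycle phosphatase, differed by -0.92 (SE 0.22, limma adjusted p 0.159) and PRK, the Calvin cycle phosphoribulokinase, by -0.88 (SE 0.24, limma adjusted p 0.177). The medians over the 5 by array were 0.30 and 0.13 in Col-0 and -0.13 and -0.33 in aln-1.

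Of 12 root genes 3 were measured, and all 3 had a difference above 0, with medians by array of -0.67 and -0.37 in Col-0 and 0.37 and 0.71 in aln-1. EXPA7, a root hair expansin, differed by 1.43 (SE 0.36, limma adjusted p 0.162), EXPA18, another, by 1.14 (SE 0.25, limma adjusted p 0.146), and PYK10, a root beta-glucosidase, by 0.20 (SE 0.13). Summed levels cannot be given from centred values. None of 6 pollen and inflorescence genes was matched to a probe set of its own, which does not mean that the array lacks them. The part of these markers in the differences of the pseudogenes was not tested.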

How the data were processed

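ATH1 arrays were hybridised with RNA of 2 Col-0 and 2 aln-1 samples, grouped by their titles. The authors' signals come from MAS5, per the submitters' processing notes, with version and scaling not given in the sources used here. Deposited log2 values are centred, for each probe set, on the median of its own 4 values: the middle pair of the 4 values adds up to 0 within 1.4e-06. That the base is 2, and that equal lowest values are a signal of 1, is assumed and not stated. The rounding steps follow the size of the stored numbers, so they cannot give the base. For the lower limit, 485 of 670 readable values had the step of a signal of 1 or a coarser one. Among values whose centring needed no rounding it was 474 of 474, 227 of them with exactly that step. The choice of these values largely fixed the 474 in advance, so this count does not show that the limit is a signal of 1. If the logarithms were natural, the signal of 256 would be 2981 and fold changes would be larger.

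Values were used as deposited, with no filter, pseudocount or variance trend. In R 4.3.3 with limma 3.58.1, lmFit and eBayes tested genotype, two-sided, with Benjamini-Hochberg adjustment over all 22746 probe sets. The fit was tested on simulated data. With 2 arrays a group, a permutation test cannot go below 0.333. The number of arrays limits the precision.

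Genes came from the array's annotation and a RefSeq gene table of TAIR10.1, used for names, classes and order. Of 22746 probe sets 13513 had 1 gene, 503 several and 8730 were not listed, and 13436 of the first matched the table. No coordinates are given, and genes are placed by locus tag or by their order in that table. The named members are all called ones, the 10 highest and 10 lowest among those 2-fold apart in every pair, the extremes of each window, neighbouring members, up to 4 genes of each list, and ALN. Neighbours are given by counts, with values where both were 2-fold apart. The members and lists were chosen with earlier results of these data known.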

Additional observations from a re-analysis of the deposited data

How the results depend on the processing

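The 5 calls became 0 after quantile normalization, with a robust variance prior, at a threshold of 0.01 and without any 1 of the 4 arrays (0 to 0). They became 43 at a threshold of 0.1, where 4.74% of all probe sets passed, 7 with arrays centred on their medians (82 over all), 6 of 110 without the dimmest class (1106 of 18195 over all), and 14 with variance priors fitted within brightness classes, where 1440 of all probe sets passed and all 5 were among the 14. The replicate block gave 0 calls. The labels do not say whether same-numbered arrays were handled together. Deviations of same-numbered arrays correlated at 0.02 over all 22746 probe sets, which cannot decide it. With limma, 121 members had an unadjusted p under 0.05 in the fit with the block, against 4460 of all 22746 probe sets. The count 2-fold apart was 178 to 210 when single arrays were dropped, which asks agreement of fewer array pairs (12.9% to 17.4% of all probe sets). It was 12 without the dimmest class, which leaves 110 members (6.82% of all), and 33 at a 4-fold limit (4.52% of members, 2.41% of all). At a 1.5-fold limit it was 121, or 16.6% of members against 16.5% of all. The median difference of 0.06 became 0.11 with arrays centred on their medians, 0.21 without the dimmest class, and -0.014 to 0.14 when single arrays were dropped. Of the list genes, 1, ALN, passed with class priors and 1, again ALN, without the dimmest class. H1.1 turned to 0.070 without aln-1 replicate 2 (range -0.42 to 0.070 over the arrays left out). The DME probe set at 0.14 turned to -0.041 without Col-0 replicate 2 and -0.051 without aln-1 replicate 1 (range -0.051 to 0.33). HSP22.0 turned to 1.30 without Col-0 replicate 1 and 1.36 without aln-1 replicate 1 (range -1.81 to 1.36). The cause was not tested. Of 225 combinations of a named member and a setting, 187 kept direction and side of the threshold, 35 lost the call, 3 gained it and 0 turned. With an array left out, the lone array of a genotype is assumed to vary like the others. Dim signals, 620 of 730 members, limit what these arrays can show.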
